A study of Mus musculus with 18 samples.

Results

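An interval of 150 kb on chromosome 1 (build mm9), which holds the slow skeletal troponin I gene Tnni1 and the cardiac troponin T gene Tnnt2, was examined for open chromatin in mouse skeletal muscle cells. Its members were the ATAC-seq peaks whose summit lay in this interval, from a first peak starting at 137649351 to a last one ending at 137779915. There were 109 such peaks among the 400115 peaks of 4 lists, and merging overlapping peaks gave 32 regions of 141979 in the genome. ATAC-seq marks open DNA by the insertion of sequencing adapters by a transposase. The lists came from 12 samples in 4 groups of 3, all labelled skeletal muscle: wild-type myoblasts, MyoD-knockout (here MyoD-null) myoblasts, and myocytes of either genotype, differentiated for 24 h. Myoblasts are dividing muscle precursors, myocytes are the cells that have begun to differentiate, and MyoD is the transcription factor that directs cells into the muscle lineage. How the MyoD gene was inactivated, and whether the cells are a line or a primary culture, is not given in the sources used here. Each list was called on the merged reads of its 3 samples, so no value below has an error between replicates and no difference between groups was tested.

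Labels and peak names disagree on the genotype of the myocytes. The list that was deposited for wild-type myocytes has peaks named MKO-DM and is called WT-deposited here. The list that was deposited for MyoD-null myocytes has peaks named WT-DM and is called MKO-deposited. Which of the records is right was not settled, so every reading of the myocytes by genotype can be turned around. The myoblast lists have matching labels and peak names. The genome-wide background, the mean number of reads over a base, was 8.18 in wild-type myoblasts, 8.54 in MyoD-null myoblasts, 5.29 in the WT-deposited myocytes and 6.34 in the MKO-deposited myocytes. Both sets of myocyte peak names begin with a tag absent from the myoblast names, so stage and any difference in handling cannot be told apart.

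Troponin is the calcium switch of striated muscle. Troponin I is the inhibitory subunit that holds back the interaction of actin and myosin, and troponin T anchors the complex to tropomyosin on the thin filament. Tnni1 encodes the isoform of slow skeletal fibres and of the embryonic heart. Tnnt2 encodes the cardiac isoform, which is also made for a time in developing and regenerating skeletal muscle. In RefSeq (assembly GRCm38.p6) the genes stand in the order Csrp1, Phlda3, Tnni1, Lad1, Tnnt2, Pkp1 along the chromosome. Lad1 encodes ladinin and Pkp1 encodes plakophilin, an epithelial desmosome protein. The peaks are on mm9 and no mm9 annotation was used, so the regions below were not assigned to exons, introns or promoters, and their numbers 1 to 32 only give their order along the chromosome.

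The 250 bases before the transcription start of each gene are shown because they bear the letters of the E-box, CANNTG, the motif recognised by MyoD and related factors. The sequences are the most upstream of the 2 starts that RefSeq lists for each gene, both on the plus strand of GRCm38.p6, and capitals mark E-boxes.
Tnni1, chr1:135799171-135799420: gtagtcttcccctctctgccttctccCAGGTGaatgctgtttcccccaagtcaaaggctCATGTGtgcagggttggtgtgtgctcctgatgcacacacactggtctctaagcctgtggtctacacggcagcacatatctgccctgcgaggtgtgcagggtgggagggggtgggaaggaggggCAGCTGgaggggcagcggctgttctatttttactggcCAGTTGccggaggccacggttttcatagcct
Tnnt2, chr1:135836084-135836333: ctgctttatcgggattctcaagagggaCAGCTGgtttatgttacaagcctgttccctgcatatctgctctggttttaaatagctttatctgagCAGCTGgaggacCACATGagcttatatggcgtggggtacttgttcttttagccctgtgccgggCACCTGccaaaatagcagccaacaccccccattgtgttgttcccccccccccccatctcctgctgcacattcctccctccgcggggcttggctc

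Each of these windows held 4 E-boxes, a number reached by 3.84% of 32851 RefSeq promoter windows of the same length, where 66.2% held at least 1. The form CAGCTG, which is one of the forms of CANNTG and reads the same on both strands, occurred once in the Tnni1 window, starting 68 bases before the start site. It occurred at 223 and 157 bases in the Tnnt2 window, and 13.0% of all promoter windows held it. Searched on both strands, the core of the MCAT element, CATTCC, was found in the Tnnt2 window at 27 bases (12.6% of all windows) and the letters AGATAA were found there at 166 bases on the opposite strand (9.99%). Neither was found in the Tnni1 window, and TATAAA (12.4%) was found in neither window. At the downstream start of each gene, whose window is not shown, the 250 bases held 2 E-boxes for Tnni1 and 1 for Tnnt2, numbers that 31.8% and 66.2% of all windows reached. These matches describe the letters and were not linked to a peak.

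The interval was dense in peaks in every list. It held 26 peaks in wild-type myoblasts, 27 in MyoD-null myoblasts, 32 in the WT-deposited myocytes and 24 in the MKO-deposited myocytes. Among fixed windows of 150 kb with at least 1 peak the median was 7, 7, 7 and 6 peaks, respectively, and 0.515%, 0.557%, 0.244% and 1.26% of them held as many as this interval or more. The peaks had a lower fold than those of the whole list: their median fold enrichment at the summit, the deposited ratio of pileup over local background, was 3.09, 3.10, 3.75 and 3.49, against 3.75, 3.73, 4.80 and 4.42 in the 4 whole lists. Their median pileup was 47, 50, 60.5 and 60 reads, and that of the whole lists was not computed. The local background itself was high here, with medians of 15.4, 17.0, 15.5 and 14.9 reads against 10.3, 11.02, 7.50 and 8.74 in the whole lists.

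Of the 32 regions, 20 were listed in all 4 groups (45.9% of regions genome-wide belong to this class). A further 5 were listed only in the WT-deposited myocytes (16.3% genome-wide). Another 3 were missing only from the MKO-deposited myocytes (4.87%) and 1 was missing only from the WT-deposited myocytes (2.97%). There were 2 regions shared by the myocyte lists and absent from the myoblasts (3.42%), and 0 of the reverse kind (4.64%). The last, region 13, was listed in MyoD-null myoblasts and the WT-deposited myocytes alone (2.21%). By the peak names both of these lists are MyoD-null, so the region followed genotype on that reading and not as deposited. No region was listed only in a myoblast group or only in the MKO-deposited myocytes.

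**Figure D1:**
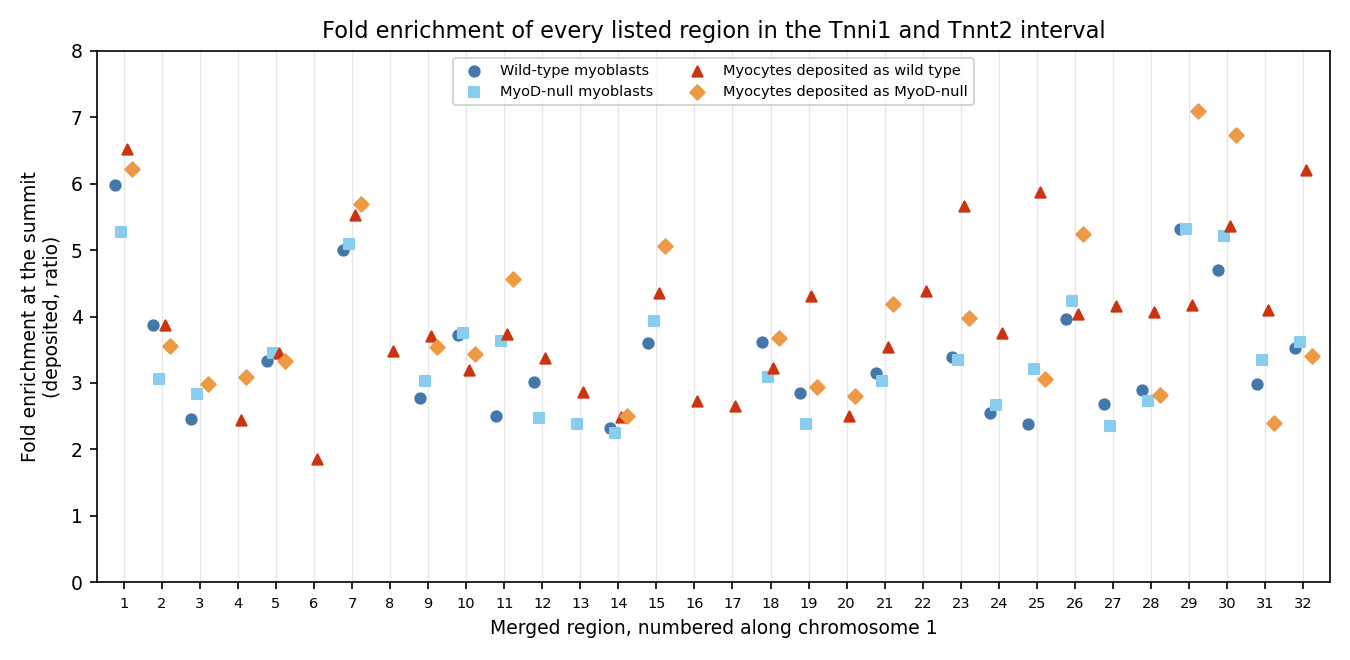
Deposited fold enrichment (ratio, vertical axis) of each of the 32 merged regions (horizontal axis, in chromosome order), with 1 point for each list that holds the region, at the strongest peak. Regions 1 and 7 were high in all 4 lists, region 25 stood at 5.88 in the WT-deposited myocytes and between 2.38 and 3.22 in the other lists, and region 29 reached 7.10 in the MKO-deposited myocytes.

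Among the strongest regions shared by all lists were regions 1, 7 and 30. Region 1, from 137649351 to 137649890, had a fold enrichment of 5.98 in wild-type myoblasts, 5.27 in MyoD-null myoblasts, 6.53 in the WT-deposited myocytes and 6.23 in the MKO-deposited myocytes. The pileup, the number of reads covering the summit as solved from the deposited fold and p-value, was 100, 94, 96 and 97 in the same order. The 4 summits lay within 7 bp of each other, from 137649639 to 137649646. Region 7, from 137667365 to 137668281, had folds of 5.004, 5.09, 5.52 and 5.69 and pileups of 125, 136, 144 and 138, the highest pileups of the interval in the 4 lists. Region 30, from 137758490 to 137759275, had folds of 4.70, 5.21, 5.36 and 6.74 and pileups of 88, 103, 107 and 110. For region 1 the 95% exact Poisson intervals of the 4 pileups in reads overlapped. They were 81.4 to 122 in wild-type myoblasts and 77.8 to 117 in the WT-deposited myocytes. Divided by the genome-wide background of each list, the intervals did not all overlap. MyoD-null myoblasts then had 8.89 to 13.5 and the WT-deposited myocytes 14.7 to 22.2. Those of wild-type myoblasts, 9.95 to 14.9, and the MKO-deposited myocytes, 12.4 to 18.7, overlapped both. Intervals cover counting error only.

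The region that differed most between the lists was region 25, from 137732218 to 137733099. Its summit was covered by 31 reads in wild-type myoblasts (95% exact Poisson interval 21.1 to 44.0), 49 in MyoD-null myoblasts (36.2 to 64.8), 132 in the WT-deposited myocytes (110 to 157) and 29 in the MKO-deposited myocytes (19.4 to 41.6). The WT-deposited myocytes thus stood apart from the other lists, although their genome-wide background was the lowest. The folds were 2.38, 3.22, 5.88 and 3.06 in the same order, and the −log10 q values were 3.74, 10.4, 54.9 and 5.86. On the log2 scale, the fold was higher by 1.31 in these myocytes than in wild-type myoblasts, a ratio that 1.78% of the 77469 regions listed in both reached. Against the other myocyte list it was higher by 0.94 (3.67% of 75157 regions). With pileups divided by the genome-wide background of each list, the values were 3.79, 5.74, 24.95 and 4.57. The ratio of the WT-deposited myocytes to wild-type myoblasts was then 6.58, reached by 0.0555% of shared regions, and that to the other myocytes was 5.46, reached by 0.0852%. With genotypes read from the peak names, the wild-type comparison at this region is between the values 3.06 and 2.38, a log2 fold ratio of 0.36, and the MyoD-null comparison is between 5.88 and 3.22, a log2 ratio of 0.87. The highest point of the region was not at one position, with summits from 137732531 in the MKO-deposited myocytes to 137732869 in wild-type myoblasts, a spread of 338 bp.

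Of the regions beside it, 24 and 27 were also highest in the WT-deposited myocytes, by fold and by pileup in reads, and region 26 between them was not by either. Region 24, from 137730733 to 137731218, lay next to region 25 and was listed with 35 reads in wild-type myoblasts, 42 in MyoD-null myoblasts and 82 in the WT-deposited myocytes. It was not listed in the MKO-deposited myocytes, where a summit needed 21 reads at the local background of the nearest listed peak. Region 27, from 137743734 to 137744170, was likewise missing only from that list (25 reads needed) and had 47, 48 and 66 reads in the others. Scaled to the genome-wide background, the ratio of the WT-deposited myocytes to wild-type myoblasts was 3.62 for region 24 (2.10% of shared regions reached it) and 2.17 for region 27 (15.9%). Region 26, from 137740323 to 137741555, had pileups of 63 reads in wild-type myoblasts, 80 in MyoD-null myoblasts, 60 in the WT-deposited myocytes and 65 in the MKO-deposited myocytes, and its folds were 3.96, 4.24, 4.05 and 5.24. Its scaled pileups were 7.70, 9.37, 11.3 and 10.3, so on that scale it too was highest in the WT-deposited myocytes. By scaled pileup that list was highest at 18 of the 20 regions in all lists, a count whose genome-wide share was not computed. Over all shared regions its scaled pileup was higher than in wild-type myoblasts at 92.7% and higher than in the other myocytes at 80.6%. Region 23, from 137725418 to 137725927, had a fold of 5.67 in the WT-deposited myocytes against 3.38, 3.34 and 3.98 in wild-type myoblasts, MyoD-null myoblasts and the other myocytes. Its pileups were 39, 42, 43 and 30 reads in list order, and their Poisson intervals overlapped (31.1 to 57.9 in the WT-deposited myocytes and 20.2 to 42.8 in the other myocytes).

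**Figure D2:**
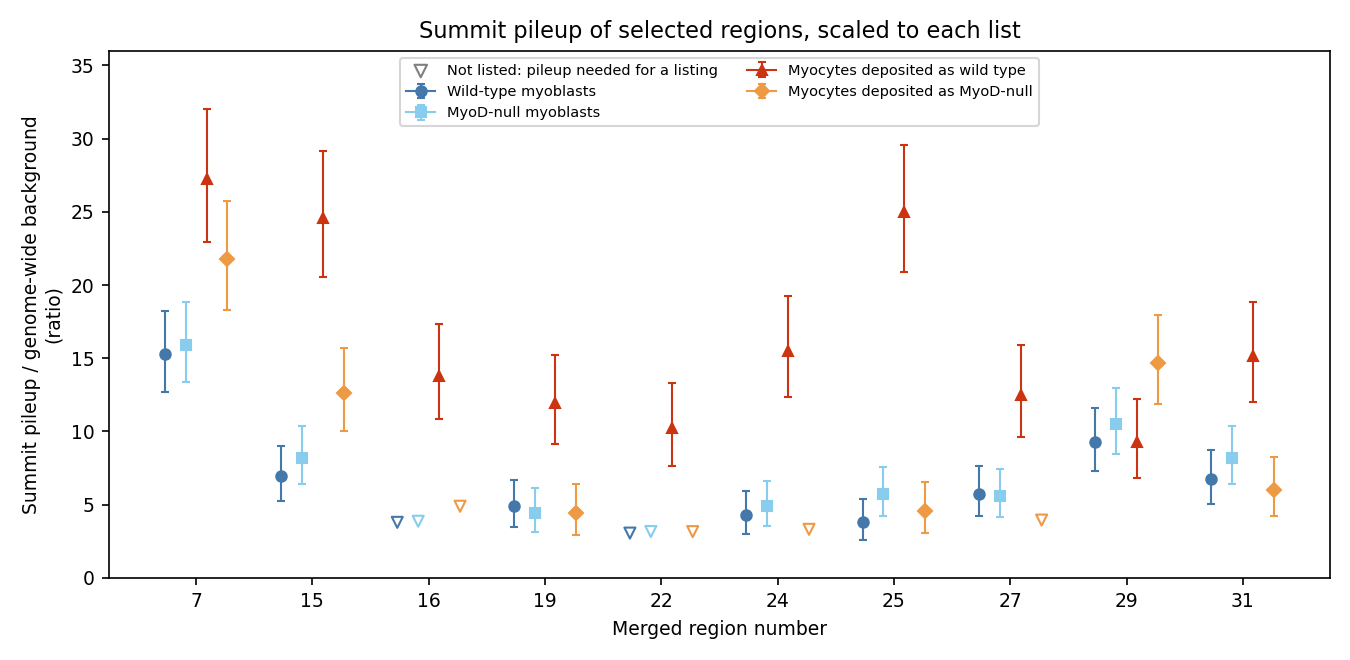
Summit pileup divided by the genome-wide background of the list (ratio, vertical axis) for 10 regions picked after their values were seen (horizontal axis), with bars for 95% exact Poisson intervals. Open triangles mark the pileup that a listing needed in lists without the region. Regions 24 and 25 stood at 15.5 and 24.95 in the WT-deposited myocytes, and at region 29 the order of the myocyte lists was the opposite, 9.26 against 14.7.

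A second group of differing regions lay between 137690134 and 137697596. Region 15, from 137690134 to 137691845, was listed as 2 separate peaks in either myoblast list and in the MKO-deposited myocytes, and as 1 peak of 1496 bp in the WT-deposited myocytes. The strongest summit had 57, 70 and 80 reads in the former lists and 130 in the last (interval 109 to 154). The folds went the other way between the myocyte lists, with 4.35 in the WT-deposited myocytes over a local background of 29.1 reads and 5.06 in the others over 15.02 reads. In the myoblasts the folds were 3.61 in wild-type and 3.94 in MyoD-null cells. Regions 16 and 17, from 137694998 to 137696204 and from 137697102 to 137697596, were listed only in the WT-deposited myocytes. Region 16 had 73 reads and a fold of 2.73, and at the nearest listed peak of the other lists a listing needed 31, 33 and 31 reads. Region 17 had 44 reads and a fold of 2.66, with the same numbers needed. These regions, and the others of their class, fall outside the rule for named regions and were chosen after their values were seen.

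The other regions listed only in the WT-deposited myocytes were regions 6, 8 and 22. Region 22, from 137717999 to 137718734, had the highest fold of the class, 4.39, with 54 reads, in a stretch where 25 reads in wild-type myoblasts and 20 in the other myocytes would have sufficed. Region 8, from 137673143 to 137673945, had 61 reads and a fold of 3.48, and a listing needed 35, 37 and 34 reads in wild-type myoblasts, MyoD-null myoblasts and the other myocytes. Region 6, from 137663941 to 137664146, had the lowest fold in the interval, 1.85, over a local background of 35.2 reads. It had 66 reads, and a listing there needed 46 in wild-type myoblasts and 50 in the MKO-deposited myocytes. Region 19, from 137708860 to 137710613, was in all lists but reached 63 reads over a peak of 1754 bp in the WT-deposited myocytes, against 40, 38 and 28 reads in wild-type myoblasts, MyoD-null myoblasts and the other myocytes.

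Both myocyte lists, and neither myoblast list, held regions 4 and 20. Region 4, from 137660142 to 137661154, had folds of 2.44 in the WT-deposited myocytes and 3.09 in the MKO-deposited myocytes, with 67 and 86 reads, and the first list held 2 separate peaks in it. A listing needed 46 reads in wild-type myoblasts and 49 in MyoD-null myoblasts at the nearest listed peak. Region 20, from 137715189 to 137715483, had folds of 2.503 and 2.80 with 36 and 27 reads, and needed 25 and 27 reads in the myoblast lists. Its summits in the myocyte lists were 3 bp apart. Both regions had folds below the median of the interval in their list.

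Of the 22 regions in both myocyte lists, 12 had a higher fold in the MKO-deposited myocytes, while by scaled pileup 3 were higher there. Genome-wide, 69.9% of such regions by fold and 80.6% by scaled pileup were higher in the WT-deposited myocytes. The largest difference towards the MKO-deposited myocytes was at region 29. Region 29, from 137748792 to 137749351, had folds of 5.32 in wild-type myoblasts, 5.32 in MyoD-null myoblasts, 4.18 in the WT-deposited myocytes and 7.10 in the MKO-deposited myocytes, the highest fold of the interval. The pileups were 76, 90, 49 and 93 reads, and the intervals of the myocyte lists, 36.2 to 64.8 and 75.1 to 114, did not overlap. Divided by the genome-wide background of each list, these intervals were 6.85 to 12.2 and 11.8 to 17.97 and did overlap. The log2 fold ratio of the WT-deposited myocytes to the other myocytes was -0.76, and 1.001% of shared regions had a ratio as low. At region 26 the log2 fold ratio was -0.37. Region 11, from 137679361 to 137679910, had folds of 2.51, 3.63, 3.74 and 4.56 in wild-type myoblasts, MyoD-null myoblasts, and the WT-deposited and MKO-deposited myocytes. Region 3, from 137656249 to 137656600, was missing from the WT-deposited myocytes. It had 40, 53 and 60 reads in wild-type myoblasts, MyoD-null myoblasts and the other myocytes, over local backgrounds of 15.7, 18.0 and 19.4 reads. In the WT-deposited myocytes a listing needed 46 reads at the nearest listed peak, in region 4, where the local background was 26.3. At region 2, on the other side, it was 14.3, so the number needed at region 3 is uncertain.

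Regions 31 and 32 were lower in the MKO-deposited myocytes than in the other myocytes. Region 31, from 137761509 to 137762470, had 55, 70, 80 and 38 reads in wild-type myoblasts, MyoD-null myoblasts, and the WT-deposited and MKO-deposited myocytes, with folds of 2.99, 3.35, 4.10 and 2.40. Its summit in the WT-deposited myocytes lay 609 bp from the most distant of the others, so the lists may not describe the same site. Region 32, from 137779250 to 137779915, had folds of 3.52, 3.62, 6.20 and 3.41, while its pileups were 36, 40, 38 and 24. Region 10, from 137677772 to 137678173, had the lowest mean of the log2 fold ratios of wild-type and MyoD-null cells among the 20 regions in all lists, with folds of 3.72, 3.75, 3.19 and 3.44, although regions 29 and 31 each had a lower ratio in one genotype as deposited. Region 5, from 137662127 to 137663297, differed little by fold, with 3.34, 3.45, 3.45 and 3.32.

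In wild-type differentiation as deposited, 9 of the 32 myocyte peaks had no overlap in wild-type myoblasts (30.0% of the whole list) and 1 of the 26 myoblast peaks had none in the myocytes (18.0%). Of 23 regions in both lists, 19 had a higher fold in myocytes (85.1% of all such regions) and 1 was at least 2-fold higher (6.01%). The median log2 fold ratio was 0.19 in the interval and 0.35 over all shared regions. By pileup over the genome-wide background, 22 of 23 were higher (92.7%) and 7 were at least 2-fold higher (21.9%), with medians of 0.88 and 0.69. On that scale the 7 regions were 9, 15, 19, 24, 25, 27 and 31. The shares of higher regions were thus near those of the whole list by either measure, and region 25 was the member farthest above the median.

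In MyoD-null differentiation as deposited, 2 of 24 myocyte peaks were absent from the myoblasts (16.2%) and 4 of 27 myoblast peaks were absent from the myocytes (24.7%). Of 21 shared regions, 16 had a higher fold in myocytes (73.2%), with a median log2 ratio of 0.22 against 0.17 genome-wide. By scaled pileup 15 were higher (79.6%), and the medians were 0.43 and 0.36. Between the myocyte lists, 9 of the 32 peaks deposited as wild type were absent from the other list (32.0%) and 1 of 24 was absent the other way (13.1%). The fold was higher in the WT-deposited myocytes at 10 of 22 shared regions (69.9%), with a median log2 ratio of -0.02 against 0.16. By scaled pileup it was higher at 19 of 22 (80.6%) with a median of 0.45 against 0.34, so the direction of this median depended on the measure. The scaled pileup was at least 2-fold higher at 3 regions (9.09%), which were regions 19, 25 and 31.

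**Figure D3:**
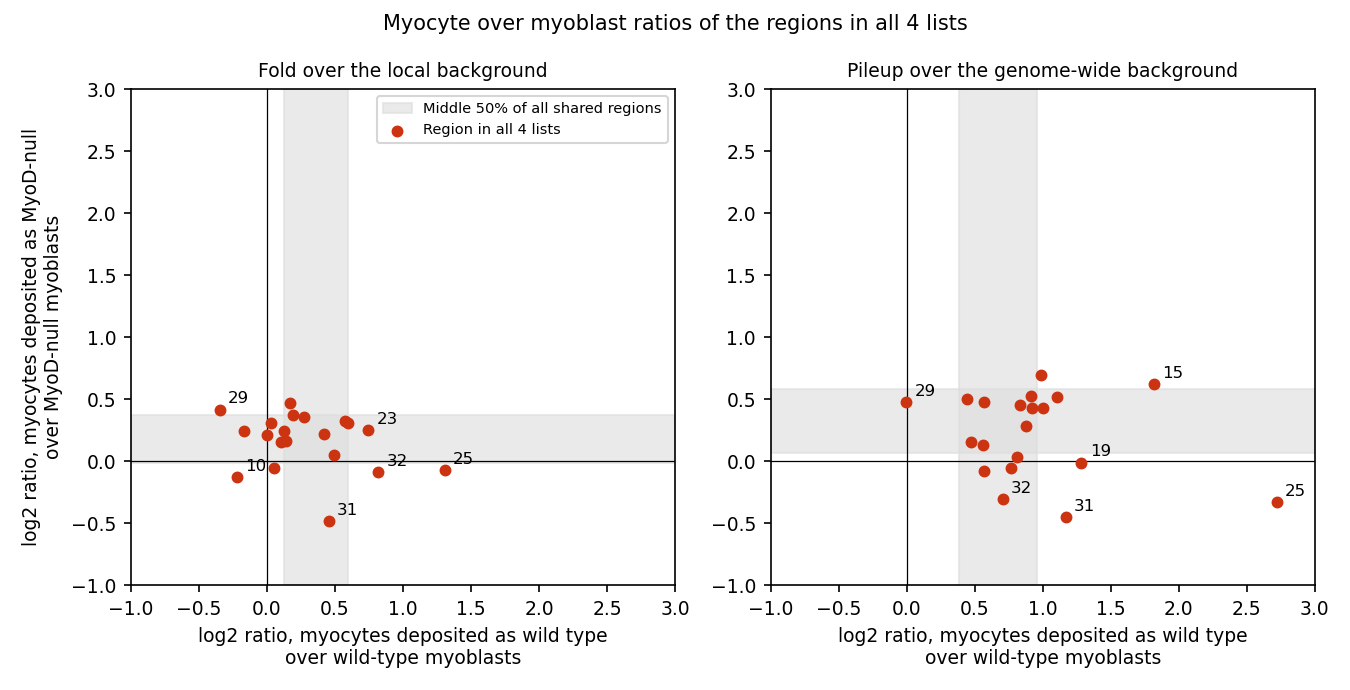
log2 ratio of myocytes to myoblasts for the 20 regions in all 4 lists, as deposited, with wild-type cells on the horizontal and MyoD-null cells on the vertical axis, by fold (left) and by pileup over the genome-wide background (right). Grey bands hold the middle 50% of all shared regions, and region 25 lies at 1.31 and -0.07 on the left and at 2.72 and -0.33 on the right.

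Between the myoblast lists, where labels and peak names give the same genotype, the sets of regions were close. Of 27 MyoD-null peaks 1 was absent from wild-type myoblasts (14.8%), and 0 of 26 wild-type peaks were absent from MyoD-null myoblasts (12.8%). That 1 peak was region 13, from 137685365 to 137685582, with 37 reads in MyoD-null myoblasts and 39 in the WT-deposited myocytes. It was not listed in wild-type myoblasts, where 30 reads were needed at the nearest peak. Of 24 shared regions 14 had a higher fold in MyoD-null myoblasts (53.5%), with medians of 0.02 in the interval and 0.02 genome-wide. By scaled pileup 17 were higher (54.9%). The largest fold ratios were at region 11, with 46 reads in wild-type myoblasts against 70 in MyoD-null myoblasts, and at region 25, with 31 against 49 reads. The log2 fold ratios there were 0.53 and 0.44, reached by 0.656% and 1.88% of shared regions. The Poisson intervals of the pileups overlapped at both (33.7 to 61.4 and 54.6 to 88.4 at region 11). The lowest ratios were -0.34 at region 2, from 137651797 to 137652810, where the summits of the lists were up to 692 bp apart, and -0.29 at region 12, from 137684441 to 137684853. Region 12 had 47 reads in wild-type myoblasts, 38 in MyoD-null myoblasts and 44 in the WT-deposited myocytes, and it was the third of those missing only from the MKO-deposited myocytes, where 31 reads were needed.

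The background around the peaks differed across the interval as well. The local background exceeded the genome-wide background by a median factor of 1.90 in wild-type myoblasts, 2.05 in MyoD-null myoblasts, 2.77 in the WT-deposited myocytes and 2.35 in the MKO-deposited myocytes, over the 20 shared regions. In the WT-deposited myocytes the factor reached 5.84 at region 5, 5.50 at region 15 and 4.09 at region 25. In the other myocytes it was 4.63, 2.37 and 1.39 at the same regions, and in wild-type myoblasts 3.18, 1.84 and 1.52. At region 5 both myocyte lists were therefore high, and at regions 15 and 25 the WT-deposited myocytes alone. Since the fold divides by this background, the folds at regions 15 and 25 differ less between lists than the pileups do. The strongest peaks were also widest in the WT-deposited myocytes at 9 of the 20 regions, a count whose genome-wide share was not computed. Their median width there was 698 bp, against 483, 437 and 506 bp in wild-type myoblasts, MyoD-null myoblasts and the other myocytes. Peaks covered 20779 bp of the interval in that list and 12725, 12220 and 13431 bp in the others. The WT-deposited list was also the broadest as a whole, with a median peak width of 498 bp against 421, 398 and 483 bp. Its peaks covered 67.6 Mb of the genome, against 52.1, 51.2 and 51.9 Mb in the others.

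**Figure D4:**
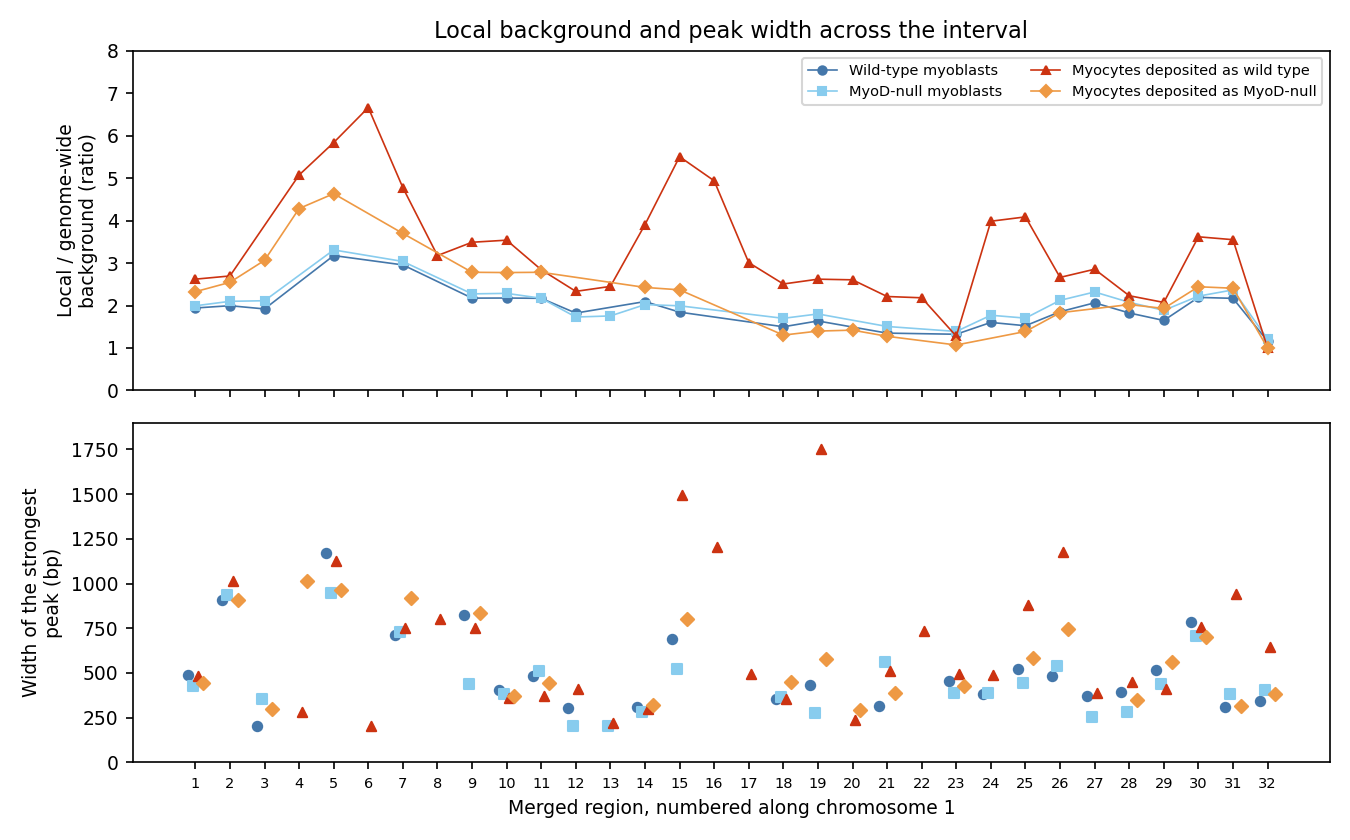
Local background divided by the genome-wide background (ratio, top) and width of the strongest peak (bp, bottom) for each listed region, in chromosome order. The WT-deposited myocytes reached 5.50 at region 15 and 4.09 at region 25, where the other lists lay between 1.39 and 2.37.

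The remaining shared regions were 9, 14, 18, 21 and 28. Region 9, from 137675348 to 137676194, had 51, 61, 71 and 65 reads in wild-type myoblasts, MyoD-null myoblasts, and the WT-deposited and MKO-deposited myocytes. Region 14, from 137686432 to 137686753, had 41, 40, 53 and 40 reads and was among the weakest, with folds from 2.25 to 2.503. Region 28, from 137747252 to 137747768, had 45, 50, 51 and 38 reads and folds of 2.89, 2.72, 4.06 and 2.82. Regions 18 and 21, from 137707802 to 137708253 and from 137717337 to 137717907, had pileups of 33 to 47 and 37 to 44 reads over the 4 lists.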

How the data were processed

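ATAC-seq was available as 1 narrowPeak list for each group of 3 samples. Per the submitters' processing notes, MACS2 and deepTools were used on build mm9. The peak names point to merged alignments whose names hold MAPQ30. Not given in the sources used here are the aligner, the settings of the caller, any shift of reads for the transposase and the span of the local background. The deposited fold enrichment is a ratio of pileup to local background, and the −log10 p and −log10 q values are the authors' own for each peak. The deposited score was not used. The 6 RNA-seq samples were not analysed here.

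The few peaks outside the autosomes, X and Y were dropped. The pileup n and background b of a peak were solved from fold = (n + 1) / (b + 1) and the Poisson probability of more than n reads, and n came within 0.05 of a whole number for 100% of peaks in each list. Whether the unit counted is a read or a fragment is not stated. The most frequent b was taken as the genome-wide background, which may include mitochondrial reads. Reads needed for a listing are those that reach the lowest −log10 p of the list at the background of the nearest listed peak, an approximation. Regions were merged over all lists from overlaps of at least 1 bp, and the strongest peak stands for a list. Named regions were the 8 with the highest fold, those following stage or genotype, and the 3 with the largest and smallest mean myocyte to myoblast ratio; others are given for completeness. The interval, the rule and the alternatives were chosen with earlier results of these data known. Coordinates count from 1. The steps were tested on 20000 simulated sites, and 6 of 6 known quantities were recovered within 1%. The simulated peaks stood alone, with equal widths and small shifts, so split peaks and distant summits were not covered. Simulated folds and p-values came from the same formulas that were then solved. That part tested the solving only and could not show that the caller used these formulas. Calculations used scipy 1.17.1, pandas 2.3.3 and numpy 2.4.6 under Python 3.11.15, with plots by matplotlib 3.10.9.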

Additional observations from a re-analysis of the deposited data

Results flagged for a closer look

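At 7 of the 20 regions with a value in all 4 lists, the fold enrichment was higher in myocytes than in myoblasts for one genotype as deposited and lower for the other. Genome-wide this held for 29.1% of 65178 such regions. That share was computed only for fold as deposited, so the counts below by scaled pileup and by peak names stand without one. The values are the log2 myocyte to myoblast ratio of wild-type cells minus that of MyoD-null cells, and none of the differences was tested. The difference was 1.38 at region 25, 0.93 at region 31 and 0.90 at region 32. It was -0.76 at region 29, -0.41 at region 18 and -0.22 at region 2, and it was 0.10 at region 5. The directions at regions 2 and 5 rest on small values: the wild-type ratio at region 2 was -0.00076, and the ratios at region 5 were 0.049 and -0.054. By pileup over the genome-wide background, 7 of 20 regions also had opposite directions. These were regions 25 (2.72 and -0.33), 31 (1.17 and -0.45), 32 (0.71 and -0.31), 18 (0.57 and -0.08) and 29 (-0.0044 and 0.48), and in addition regions 19 (1.28 and -0.011) and 23 (0.77 and -0.056). Regions 2 and 5 were higher in myocytes of both genotypes on that measure. With genotypes read from the peak names, the fold had opposite directions at 6 of 20 regions, which were 2, 26, 28, 29, 31 and 32. Region 25 was not among them: its log2 ratios were then 0.36 in wild-type and 0.87 in MyoD-null cells, both higher in myocytes.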

How the results depend on the processing

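Over 8 alternatives and 22 results, 83 of 135 recomputed values stayed close to the reported one, 51 moved and 1 reversed; counts were called close within 1.5-fold and log2 ratios within 0.1. Shares over all peaks or regions were not recomputed for the counts under the alternatives, except where a percentage is given. The other counts below therefore cannot be set against the whole lists. Leaving out a replicate could not be run because each list merges its 3 samples. No paired analysis was possible because the lists carry no replicates. Where no cause is given, it was not tested.

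Reading genotypes from the peak names reversed the log2 ratio of the myocyte lists at region 25 to -0.94 and gave 0.36 for its wild-type differentiation. The wild-type myocyte peaks absent from wild-type myoblasts were then 2, the reverse 3, and those of MyoD-null cells 8 and 1. Between the myocytes, 1 wild-type peak was absent from MyoD-null myocytes (13.1% of the whole list) and 9 the other way (32.0%). All other alternatives, here and below, name the myocytes by genotype as deposited. With pileup over the genome-wide background, the median log2 ratio was 0.88 for wild-type differentiation, 0.43 for MyoD-null differentiation and 0.45 for the myocyte lists, and region 25 gave 2.72 and 2.45.

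Keeping only a fold of at least 5 left 3, 4, 6 and 6 peaks in wild-type myoblasts, MyoD-null myoblasts and the WT-deposited and MKO-deposited myocytes. Of their regions 2 were in all lists, 0 in both myocyte lists alone, 3 only in the WT-deposited myocytes and 0 missing only from the other myocytes. Absent peaks were then 4 for wild-type myocytes against myoblasts, 0 for MyoD-null myoblasts against myocytes, and 3 in either direction between the myocytes. With a −log10 q of at least 5, 4 MyoD-null myocyte peaks were absent from MyoD-null myoblasts, and 2 peaks of either myoblast list from the other. Lists cut to an equal length of 88233 peaks gave 1 region in both myocyte lists alone and 3 only in the WT-deposited myocytes. Absent peaks were 5 for myocytes against myoblasts of either genotype, 2 for MyoD-null myoblasts against myocytes, 3 for MyoD-null against wild-type myocytes, and 3 for wild-type against MyoD-null myoblasts. Under these thresholds region 25 had no wild-type differentiation value, since its myoblast peak dropped out, and at a fold of at least 5 it had none between the myocyte lists either.

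With a reciprocal overlap of 50%, the WT-deposited myocytes lacked 7 peaks of wild-type myoblasts and 5 of the MKO-deposited myocytes. With summits within 250 bp these were 4 and 4, and the other myoblasts lacked 2 MyoD-null and 1 wild-type myoblast peaks. Under the summit rule region 25 had no ratio between the myocyte lists, whose summits lie farther apart than that. Widening the interval by 50 kb on each side gave 42, 41, 50 and 38 peaks in the order above, 33 regions in all lists, 8 only in the WT-deposited myocytes and a median of 0.39 for wild-type differentiation. Absent peaks were then 14 for wild-type myocytes against myoblasts, 3 for the reverse, and 2 MyoD-null and 3 wild-type myoblast peaks against the other myoblasts.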
